A study of Mus musculus with 12 samples.

Results

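The heat shock proteins and cochaperones described here are 10 genes of the protein folding system: the small heat shock proteins Hspb1, Hspb8 and Cryab, the Hsp70 proteins Hspa1a, Hspa1b and Hspa8, the Hsp110 protein Hsph1, the cytosolic Hsp90 protein Hsp90aa1, the J-domain protein Dnajb1 and the exchange factor Bag3. Members were the transcript clusters, the gene-level probe groups of the array, whose single symbol in the platform annotation is 1 of these genes. This gave 13 of the 21218 transcript clusters with 1 symbol, belonging to 7 of the 10 genes. Hspb1, Hspa8 and Hsp90aa1 each had 3 such clusters, and Hspb8, Hsph1, Dnajb1 and Bag3 had 1. Cryab, Hspa1a and Hspa1b occurred only in clusters annotated to several genes. These are described apart, because their values cannot be assigned to 1 gene.

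The study asked whether phosphatidylserine (PS), a membrane phospholipid, alters gene expression in a mouse model of familial dysautonomia (FD), a hereditary neuropathy that affects the sensory and autonomic nervous system. Every array carried the genotype label humanized knock-in IKBKAP FDloxP/+ on the C57BL/6J strain, a heterozygous notation, and the MCT groups carry the same label. Mice were gavaged from 4 months of age for 3 months, every other day, with 100 µl of PS at 200 mg/kg or of medium-chain triglycerides (MCT), and there were 3 arrays each of cerebrum MCT, cerebrum PS, heart MCT and heart PS. The labels conflict on the animals, since the design text counts 6 FD mice and the growth protocol names 3 wt mice beside 3 FD mice, so whether every control carried the allele is not settled. The labels call the arrays biological replicates without saying which arrays share a mouse, and the p-values measure the spread between these arrays.

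Both tissues carried their defining markers: the mean of 7 cardiomyocyte transcripts was 12.02 to 12.24 in heart and 4.84 to 5.04 in cerebrum on the log2 scale, and that of 7 neuronal transcripts was 10.94 to 11.26 in cerebrum and 5.23 to 5.56 in heart. Array medians were 4.89 to 5. Several arrays stood apart in ways that touch the PS comparisons. The female pattern of Xist and Y-linked transcripts was present in all 3 heart PS arrays and in cerebrum PS 1 and PS 3, and the male pattern in cerebrum PS 2 and all 6 MCT arrays, so sex pattern and treatment cannot be told apart in heart. The mean of 10 striatal neuron transcripts was 9.43 to 9.60 in cerebrum MCT and 6.75, 6.85 and 8.76 in cerebrum PS, with 4 of 10 called lower and 10 of 10 below 0. Over all 11234 genes tested in cerebrum, 441 were called lower and 5152 were above 0. In heart, the mean of 8 endothelial transcripts was 8.22 to 8.64 with MCT and 8.82 to 9.11 with PS, and that of 8 smooth muscle and pericyte transcripts was 7.81 to 8.31 with MCT and 8.51 to 8.92 with PS. In each of these 2 lists 7 of 8 transcripts were above 0 and 0 were called, against 6656 of all 11151 genes above 0 in heart. The part of these differences in the results was not tested, and in whole tissue fewer cells of a type and less RNA per cell cannot be told apart.

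Heat shock proteins are chaperones that bind unfolded proteins. Small heat shock proteins hold them in a soluble state, Hsp70 proteins fold them with ATP, J-domain proteins bring them to Hsp70, Hsp110 and Bag proteins release nucleotide from Hsp70, and Hsp90 acts on late folding states of kinases and steroid receptors. Under proteotoxic stress the transcription factor Hsf1 binds heat shock elements, arrays of inverted GAA units, in the promoters of many of these genes. In heart muscle, Hspb1, Hspb8, Cryab and Bag3 are known for the upkeep of the sarcomere, and in brain Hspa8 and Hsp90aa1 are abundant in unstressed neurons.

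The promoters are shown because heat shock elements are described in the promoters of many of these genes. RefSeq promoters on GRCm38.p6, from 250 bases before to 50 after a transcript start, were given for 7 of the 10 genes, with 9 windows in all. Hspa8, Hsp90aa1 and Cryab had no entry. Each window was searched on both strands for a pair of inverted units, GAANNTTC or TTCNNGAA. Each of these motifs is its own reverse complement, and matches may overlap where a further unit follows. At least 1 match was present in 7 of the 9 windows, belonging to 6 genes, against 4946 of the 32851 promoters in the table (15.1%). Dnajb1 had no match in its 2 windows. The 2 windows of Hsph1 overlap and hold the same matches. The region before the start of Hspb1 (chr5:135887669-135887918, plus strand) holds 2 matches, in capitals, which lie at positions -117 to -110 and -97 to -90 relative to the start. Matches in number 2 or more were present in 1.96% of all promoters.
Hspb1: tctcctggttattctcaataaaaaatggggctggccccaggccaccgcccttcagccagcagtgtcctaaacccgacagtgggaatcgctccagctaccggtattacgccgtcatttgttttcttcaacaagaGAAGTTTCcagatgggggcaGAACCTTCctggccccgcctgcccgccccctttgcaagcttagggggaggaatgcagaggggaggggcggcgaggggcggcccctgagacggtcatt

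Windows of 30 bases around the matches of the other genes show how similar the sites are, with the match in capitals. Hspb8 (chr5:116422844-116422873, minus strand) has its match after the start, as has Bag3 (chr7:128523603-128523632, plus strand). Hsph1 has one before the start (chr5:149636351-149636380, minus strand) and, after it, a run of 3 units (chr5:149636287-149636316, minus strand), a form present in 0.603% of all promoters. Hspa1a (chr17:34972242-34972271, minus strand) and Hspa1b (chr17:34959324-34959353, minus strand) share the same window, and their promoters differ at 4 of 300 bases.
Hspb8: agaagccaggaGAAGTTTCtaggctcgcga
Bag3: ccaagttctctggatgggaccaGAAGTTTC
Hsph1, before the start: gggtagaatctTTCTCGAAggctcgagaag
Hsph1, after the start: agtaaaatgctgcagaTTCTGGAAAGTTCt
Hspa1a and Hspa1b: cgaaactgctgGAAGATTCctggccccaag
A match describes these letters only and does not show binding of a factor.

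Hspb1, which caps and stabilises actin filaments as well as holding unfolded proteins, was the one gene of the set called in cerebrum between PS and MCT. Its cluster 10526410 read 5.33, 5.35 and 5.80 in MCT arrays 1 to 3 and 6.45, 7.28 and 6.59 in PS arrays 1 to 3, on the log2 scale. Every PS array lay above every MCT array, with PS 2 the highest and MCT 3 the highest of its group. The difference was 1.28 ± 0.23 (SE, n = 3 per group), or 2.43-fold (limma, Benjamini-Hochberg adjusted p = 0.0349). The second cluster, 10408928, read 5.49, 5.51 and 6.02 with MCT and 6.59, 7.43 and 6.75 with PS, a difference of 1.25 ± 0.24 (SE, adjusted p = 0.0371). Both clusters gave the same order of arrays within each cerebrum group and differed from each other by 0.14 to 0.22 on every array, so they are not independent measurements. The third Hspb1 cluster, 10404872, lay at 3.37 to 3.71 on all 12 arrays, below the low-value filter, and was not tested. In cerebrum the MCT means of the tested clusters, 5.49 and 5.67, were above that filter of 5.04.

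Over the 12 member clusters tested, 2 were called in cerebrum, both higher with PS, against 5.76% of all tested clusters called in either direction and 1.83% called higher. Likewise 2 of 12 had PS arrays wholly above the MCT arrays, against 12.4% of all. The median difference of the members was -0.0017 and that of all clusters -0.03, with members from -0.38 (Hspb8) to 1.28. Cerebrum PS 2, the PS array with the male pattern, had the highest Hspb1, and with sex pattern as a covariate, which amounts to comparing PS 2 with the MCT arrays, the differences were 1.79 and 1.76, values of an arm of 1 array. PS 3, whose striatal mean of 8.76 was nearest to the 9.43 to 9.60 of the MCT arrays, read 6.59 and 6.75 in the 2 Hspb1 clusters. The part of the striatal difference in the result was not tested. Other lists moved in the same arrays. Over all 11234 genes tested in cerebrum, 5152 were above 0, 218 were called higher and 441 lower. The mean of 11 immediate early transcripts was 7.31 to 7.54 with MCT and 7.92, 8.55 and 7.84 with PS, with 2 of 10 tested called higher. The mean of 12 glucocorticoid response transcripts was 8.53 to 8.64 and 8.98 to 9.20, with 4 of 12 called higher. The mean of 8 endothelial transcripts was 6.32 to 6.79 with MCT and 6.96, 7.13 and 6.54 with PS, with 8 of 8 above 0 and 0 called. The mean of 6 oligodendrocyte and myelin transcripts was lower with PS, at 8.66 to 9.30 with MCT and 8.14 to 8.54 with PS, with 0 of 6 above 0 and 2 called lower. Their part in the result was not tested. The calls did not hold when all clusters of the table, with any number of symbols, were tested together (adjusted p = 0.0620 and 0.0661). Leaving out MCT 1, MCT 2 or PS 1 ended both calls, and leaving out PS 2 ended that of 10408928, with differences between 1.00 and 1.44 over the 6 omissions and adjusted p of 0.0218 to 0.171.

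**Figure D1:**
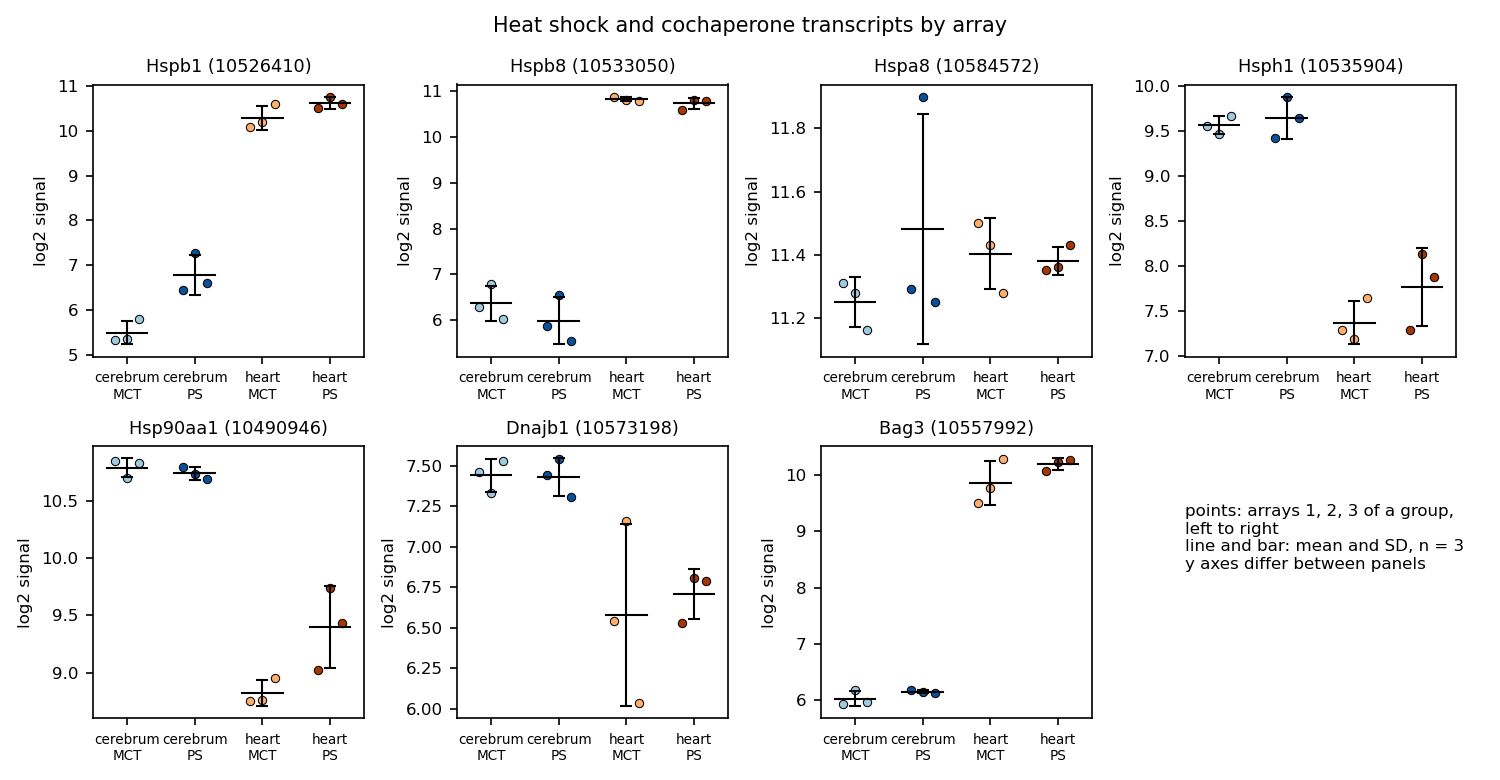
Log2 signal of 1 transcript cluster for each of the 7 genes (the one with the lowest p for PS against MCT), by tissue and treatment. Points are arrays 1 to 3 from left to right, and the line and bar give the mean and SD (n = 3); axes differ between panels and do not start at 0. Hspb1 shows the PS arrays of cerebrum, at 6.45 to 7.28, above the MCT arrays, at 5.33 to 5.80.

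In heart, Hspb1 was high under both treatments. Cluster 10526410 read 10.08, 10.19 and 10.59 with MCT and 10.51, 10.76 and 10.60 with PS. The groups overlapped because MCT 3 exceeded PS 1. The difference was 0.34 ± 0.16 (SE, adjusted p = 0.240), with a 95% interval of -0.032 to 0.71. The effect of PS in heart minus that in cerebrum was -0.94 for this cluster (adjusted p = 0.116) and -0.91 for 10408928 (adjusted p = 0.137), so a difference in response between the tissues was not called. From highest to lowest, the Hspb1 means were heart PS 10.62, heart MCT 10.29, cerebrum PS 6.77 and cerebrum MCT 5.49, with the PS difference past the test in cerebrum and not in heart. Heart MCT and cerebrum PS were not compared directly.

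Hspb8, a small heat shock protein that works with Bag3 in selective autophagy, did not follow Hspb1 in cerebrum. It read 6.29, 6.79 and 6.03 with MCT and 5.87, 6.56 and 5.54 with PS. Array 2 was the highest in both groups and the groups overlapped. The difference was -0.38 ± 0.28 (SE, adjusted p = 0.401), with a 95% interval of -1.04 to 0.28. In heart it read 10.88, 10.82 and 10.79 with MCT and 10.60, 10.81 and 10.80 with PS, a difference of -0.093 ± 0.12 (SE, adjusted p = 0.630). Its order of means was heart MCT 10.83, heart PS 10.74, cerebrum MCT 6.37 and cerebrum PS 5.99, with no PS difference past the test in either tissue.

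Cryab, the lens and muscle chaperone alpha B-crystallin, was measured only together with Hspb2, its neighbour on the chromosome. The cluster 10585214, annotated to both, read 8.88, 9.11 and 8.76 in cerebrum MCT and 8.97, 9.76 and 8.98 in cerebrum PS, and 10.90 to 10.93 and 10.94 to 11.00 in the heart groups. PS 2 was the high array in cerebrum, as it was for Hspb1. A second cluster with both symbols, 10593418, read 9.27, 9.20 and 8.72 in heart MCT and 8.70, 8.55 and 8.61 in heart PS, where PS 1 lay just below MCT 3 and the groups did not overlap. In a fit over all clusters of the table neither was called with PS, with adjusted p of 0.425 and 0.609 in cerebrum and 0.764 and 0.223 in heart. The PS differences of the 2 clusters had opposite signs in both tissues, at 0.32 and -0.16 in cerebrum and 0.06 and -0.44 in heart.

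The stress-inducible Hsp70 genes Hspa1a and Hspa1b, the textbook targets of Hsf1, were also measured jointly. Cluster 10450367, annotated to both, read 7.08, 7.10 and 7.49 in cerebrum MCT and 7.71, 8.13 and 7.77 in cerebrum PS. Cluster 10450369 read 5.90, 5.69 and 6.06 with MCT and 6.83, 6.97 and 6.37 with PS. In both, every PS array lay above every MCT array, and PS 2 was the highest. The differences were 0.65 ± 0.16 and 0.84 ± 0.17 (SE, n = 3 per group), and neither passed the threshold in the fit over all clusters (adjusted p = 0.0855 and 0.0702), in which Hspb1 missed it too. In heart the 2 clusters differed by 0.44 and 0.74 (adjusted p = 0.235 and 0.277), with heart PS 2 the highest array at 8.34 and 7.28 and PS 1 within the range of the MCT arrays. Another cluster with both symbols lay at 3.87 to 4.50 throughout and was not tested.

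**Figure D2:**
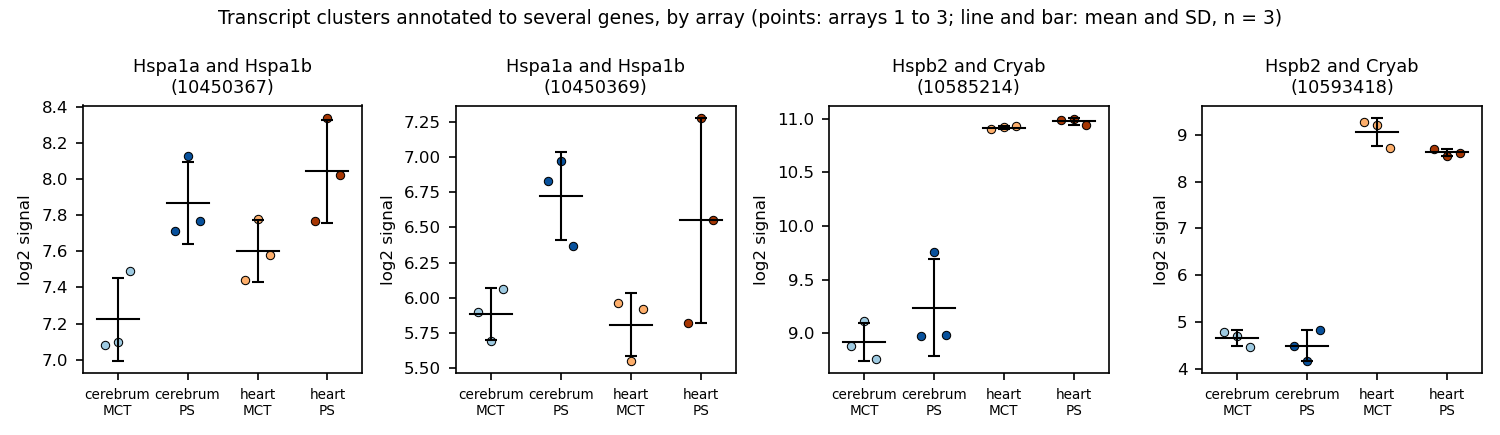
Log2 signal of 4 transcript clusters annotated to several genes, by tissue and treatment. Points are arrays 1 to 3, and the line and bar give the mean and SD (n = 3); axes differ between panels and do not start at 0. In the 2 panels for Hspa1a and Hspa1b the cerebrum PS arrays lie above the cerebrum MCT arrays, at 7.71 to 8.13 against 7.08 to 7.49 and at 6.37 to 6.97 against 5.69 to 6.06.

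Hspa8, the constitutive Hsp70 that uncoats clathrin vesicles and serves general folding, varied little. Clusters 10368025 and 10528021 lay between 11.93 and 12.21 on all 12 arrays, near the top of the range of the arrays, and differed between PS and MCT by -0.01 and 0.0067 in cerebrum and 0.037 and 0.027 in heart. Their 95% intervals reached from -0.17 to 0.17 in cerebrum and from -0.23 to 0.29 in heart. The remaining cluster, 10584572, read 11.31, 11.28 and 11.16 in cerebrum MCT and 11.29, 11.90 and 11.25 in cerebrum PS. PS 2 stood apart there, and the difference of 0.23 was not called (adjusted p = 0.404). With sex pattern as a covariate it was 0.65, a value that rests on PS 2 alone. Another pair of clusters, annotated to Hspa8 and to the small nucleolar RNAs within its introns, gave PS differences of 0.10 in cerebrum and -0.02 in heart.

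Hsph1, the Hsp110 exchange factor of Hsp70, read 9.56, 9.47 and 9.67 in cerebrum MCT and 9.42, 9.88 and 9.64 in cerebrum PS. The groups overlapped, with a difference of 0.08 ± 0.13 (SE, adjusted p = 0.700). In heart it read 7.28, 7.18 and 7.64 with MCT and 7.28, 8.13 and 7.87 with PS. PS 1 equalled MCT 1 while PS 2 and PS 3 lay above all MCT arrays, and the difference of 0.39 ± 0.23 was not called (adjusted p = 0.317).

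Hsp90aa1, the inducible cytosolic Hsp90, gave the largest heart difference of the 12 tested members. Cluster 10490946 read 8.75, 8.76 and 8.95 in heart MCT and 9.02, 9.74 and 9.43 in heart PS. The groups did not overlap, although PS 1 lay only just above MCT 3. The difference was 0.58 ± 0.19 (SE, n = 3 per group), or 1.49-fold, and did not pass the threshold (adjusted p = 0.147). Clusters 10378848 and 10402615 read 9.09 to 9.33 with MCT and 9.27 to 10.02 with PS, overlapped between groups, and differed by 0.48 and 0.47 (adjusted p = 0.186 and 0.185). These 3 clusters were within 0 to 0.39 of each other on every array and repeat 1 measurement. In cerebrum they ranged from 10.69 to 11.21 and differed by -0.073, -0.067 and -0.05. The effect in heart minus that in cerebrum was 0.63 for 10490946 (adjusted p = 0.137), and without heart PS 1 it was 0.82 (adjusted p = 0.0472). That was the only pass of this cluster in 20 alternatives, and PS 1 was its lowest heart PS array. Clusters 10378848 and 10402615 passed in 0 of 20.

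The J-domain protein Dnajb1, which delivers clients to Hsp70, ranged from 7.31 to 7.54 over the 6 cerebrum arrays, with a PS difference of -0.01 ± 0.094 (SE, adjusted p = 0.955). In heart it read 6.54, 7.16 and 6.04 with MCT and 6.53, 6.81 and 6.79 with PS. The MCT arrays spanned the PS arrays, and the difference of 0.13 had a 95% interval of -0.47 to 0.73. Bag3, the scaffold that joins Hsp70 to small heat shock proteins, read 5.94, 6.18 and 5.97 in cerebrum MCT and 6.18, 6.14 and 6.13 in cerebrum PS, a difference of 0.12 (adjusted p = 0.4004). In heart it read 9.51, 9.77 and 10.29 with MCT and 10.07, 10.23 and 10.27 with PS. MCT 3 was the highest of all 6 arrays, so the groups overlapped, and the difference was 0.33 ± 0.20 (SE, adjusted p = 0.324).

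In heart, 0 of the 12 member clusters were called with limma, against 0.330% of all clusters tested. At an unadjusted p under 0.05, the 3 Hsp90aa1 clusters passed among the members and 3015 of 12736 clusters passed in all. Differences were above 0 in 10 of 12 members, with a median of 0.34, against a median of 0.06 over all clusters. With 1 cluster per gene, 6656 of all 11151 genes tested in heart were above 0 and 18 were called higher. The 12 member clusters belong to 7 genes, so they are not 12 separate measurements. The glucocorticoid response list moved in the same arrays, with means of 8.54 to 8.87 with MCT and 9.54 to 9.83 with PS, 12 of 12 transcripts above 0, a median of 0.81 and 2 called, and its part in the result was not tested. Non-overlapping arrays with PS higher occurred in 1 of 12, against 17.2% of all clusters. Heart MCT 3 was high within its group for Hspb1, Bag3, Hsph1 and Hsp90aa1. It was the lowest of its group for Hspb8, the member clusters of Hspa8 and Dnajb1. Without it, both Hspb1 clusters (0.49 and 0.49) and Bag3 (0.55) passed the threshold (adjusted p = 0.0316, 0.0274 and 0.0248), and without it 3416 clusters were called in place of 42. Heart MCT 3 was also the MCT array with the highest mean of 6 atrial transcripts, at 6.995 against 5.97 and 6.11. Heart PS arrays 1 to 3 had atrial means of 5.76, 6.56 and 6.71. The part of these atrial values in the result was not tested.

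**Figure D3:**
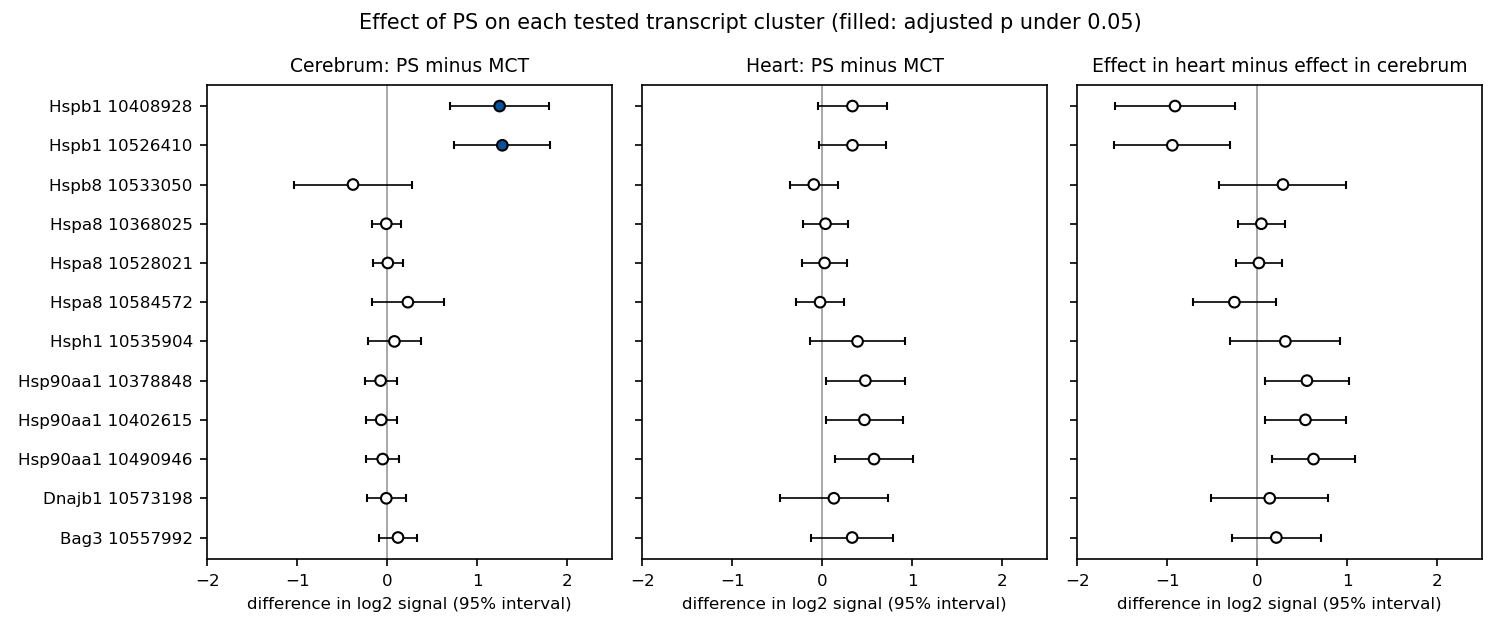
Difference between PS and MCT in log2 signal for the 12 tested transcript clusters in cerebrum, in heart, and as heart effect minus cerebrum effect. Bars are 95% intervals, and filled points have an adjusted p under 0.05. The 2 filled points are the Hspb1 clusters in cerebrum, at 1.25 and 1.28.

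In the test of whether the PS effect differed between heart and cerebrum, 0 of 12 member clusters were called with limma, against 1.52% of all clusters. At an unadjusted p under 0.05, 5 of the 12 passed, beside 2448 of 12731 clusters in all. The 5 were the tested Hspb1 clusters, with a smaller effect in heart, and the Hsp90aa1 clusters, with a larger one. Clusters of the same gene repeat each other here, so they are not 5 separate measurements. Side by side, the differences were 1.28 in cerebrum and 0.34 in heart for Hspb1 10526410, and -0.05 and 0.58 for Hsp90aa1 10490946.

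In MCT mice, the small heat shock proteins and Bag3 were far higher in heart, whereas Hsph1, Hsp90aa1 and Dnajb1 were higher in cerebrum. Hspb1 was higher in heart by 4.80 and 4.79 for its 2 clusters, a fold of 27.9 and 27.7, Hspb8 by 4.46 (22.0-fold) and Bag3 by 3.83 (14.2-fold), each with an adjusted p of 2.34e-07 or less (limma). Hsph1 fell by 2.2 from cerebrum to heart, Hsp90aa1 by 1.97, 1.92 and 1.97 and Dnajb1 by 0.86 (adjusted p = 0.0119). The 3 Hspa8 clusters differed by -0.13, -0.11 and 0.15 and were not called. For 10368025 and 10528021 the heart arrays lay wholly below the cerebrum arrays, and each passed the threshold in 2 of 15 alternatives. Over these alternatives their differences reached -0.27 and -0.24. Of the 12 clusters, 4 were called higher and 5 lower in heart, against 35.2% and 40.3% of all clusters, so a call was common in this comparison.

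PS mice gave the same calls by cluster. Here Hspb1 was higher in heart by 3.89 and 3.85, Hspb8 by 4.75 and Bag3 by 4.04, and Hsph1 fell by 1.89, Hsp90aa1 by 1.42, 1.38 and 1.35 and Dnajb1 by 0.72. Over all clusters 38.3% were called higher and 37.6% lower. The Cryab and Hspb2 clusters were higher in heart by 2.00 and 4.40 with MCT and by 1.74 and 4.12 with PS, where the larger values are approximate because the cerebrum means of 10593418, 4.66 and 4.50, lay below the filter levels of 5.23 and 5.22 used for clusters with 1 symbol. The Hspa1a and Hspa1b clusters were not called between tissues, at 0.38 and -0.073 with MCT and 0.17 and -0.17 with PS. The 95% intervals for 10450369 were -0.44 to 0.29 with MCT and -1.01 to 0.67 with PS, and those for 10450367 were 0.016 to 0.74 and -0.25 to 0.59.

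**Figure D4:**
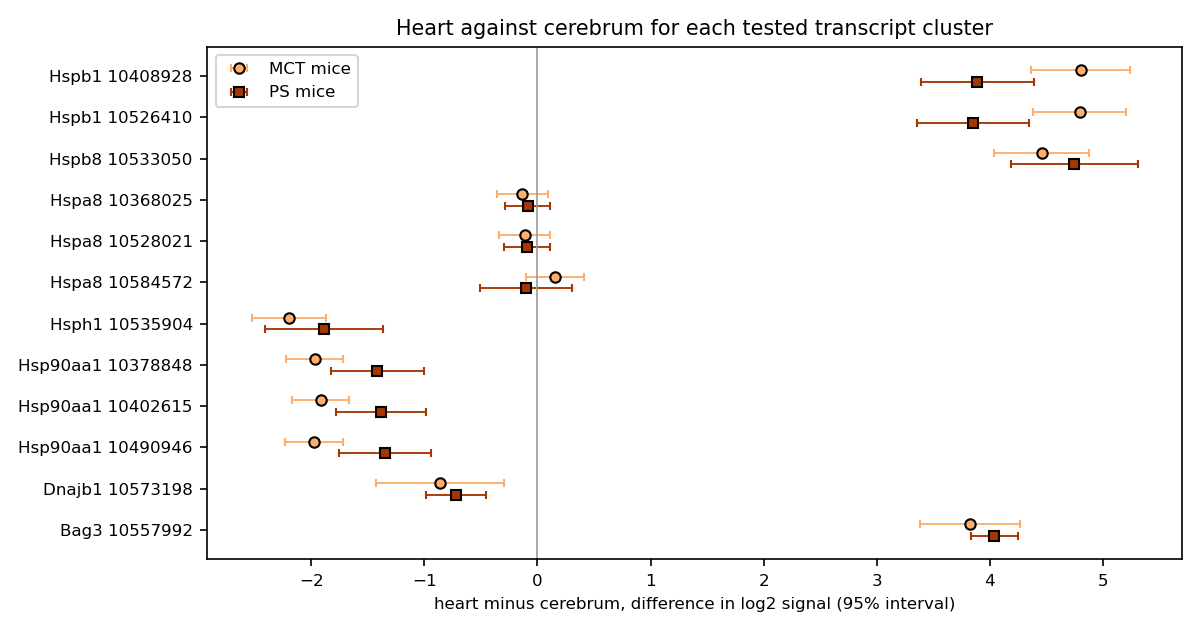
Difference between heart and cerebrum in log2 signal for the 12 tested transcript clusters, in MCT mice (circles) and PS mice (squares), with 95% intervals. Hspb1, Hspb8 and Bag3 lie between 3.83 and 4.80, Hspa8 near 0, and Hsph1, Hsp90aa1 and Dnajb1 below 0.

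Other genes of the folding system were read from 8 lists, members left out, 1 cluster per gene. In cerebrum 81 of 96 listed genes were tested, of which 1 rose and 4 fell with PS, with a median difference of -0.043 against -0.023 over all 11234 genes tested, of which 218 rose and 441 fell. Dnajb5, a J-domain protein, rose from 7.53 ± 0.13 to 8.19 ± 0.24 (SD, n = 3 each), by 0.66 (adjusted p = 0.0412). The mitochondrial cochaperonin Hspe1 fell by 0.54 (adjusted p = 0.0419), the Hsp70 exchange factor Bag1 by 0.42 (adjusted p = 0.0371) and the microsomal Hsp70 protein Hspa13 by 0.35 (adjusted p = 0.0460). Hspb11, an intraflagellar transport protein despite its name, fell by 0.60 (adjusted p = 0.0309). Its PS arrays read 4.91, 5.04 and 5.17, around the filter level of 5.04, so this fall is approximate. Among 12 chaperonins and mitochondrial chaperones, 1 had a difference above 0, the median was -0.23 and 1 was called. Over all 11234 genes tested, 5152 were above 0. Hspd1, the partner of Hspe1, differed by -0.39 (adjusted p = 0.0525) in its brighter cluster and fell by 0.61 in the other (adjusted p = 0.0383). Leaving out any of MCT 1, MCT 2, PS 1 or PS 2 ended each of these 5 calls, leaving out MCT 3 also those of Dnajb5, Bag1 and Hspa13, and leaving out PS 3 that of Hspa13. None of the 5 passed when all clusters of the table were tested (adjusted p = 0.0554 to 0.0759), and Dnajb5 and Hspe1 missed the threshold with no filter.

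Small heat shock proteins other than the members were not called with PS in cerebrum, where 2 were tested (Hspb3 at 0.47 and Hspb6 at -0.15), or in heart, where 4 were tested. None of the 3 tested heat shock factors and regulators was called in either tissue, with Hsf2 at -0.15 in cerebrum and 0.34 in heart. Of the other Hsf1 targets, Mt2 and Mt1, metallothioneins that also respond to glucocorticoids, differed by 0.45 and 0.42 in cerebrum and by 1.29 and 0.59 in heart, below the threshold (adjusted p = 0.101 and 0.119 in heart).

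In heart 86 of the listed genes were tested, and 1 rose and 0 fell, with a median of 0.12 against 0.073 over all 11151 genes tested, of which 18 rose and 12 fell. The gene that rose was Fkbp5, an Hsp90 cochaperone of the glucocorticoid receptor that is also on the glucocorticoid list, by 2.46 (adjusted p = 0.00137). It read 5.80, 5.73 and 5.91 with MCT and 7.96, 8.59 and 8.28 with PS in heart, against 6.55, 6.83 and 6.71 and 7.38, 6.37 and 7.51 in cerebrum. The heart groups were far apart, and in heart sex pattern and treatment cannot be told apart. Cerebrum PS 2, the PS array with the male pattern, lay below all cerebrum MCT arrays. The part of sex pattern in these values was not tested. The effect in heart exceeded that in cerebrum by 2.07 (adjusted p = 0.0191), and this call was lost without cerebrum MCT 1 or MCT 2. Of the Hsp70 and Hsp110 list, 10 of 11 genes were above 0 in heart, with a median of 0.24 and 0 called. Over all 11151 genes tested, 6656 were above 0. The J-domain protein Dnaja1 differed by 0.64 in 1 cluster (adjusted p = 0.122) and 0.23 in another.

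**Figure D5:**
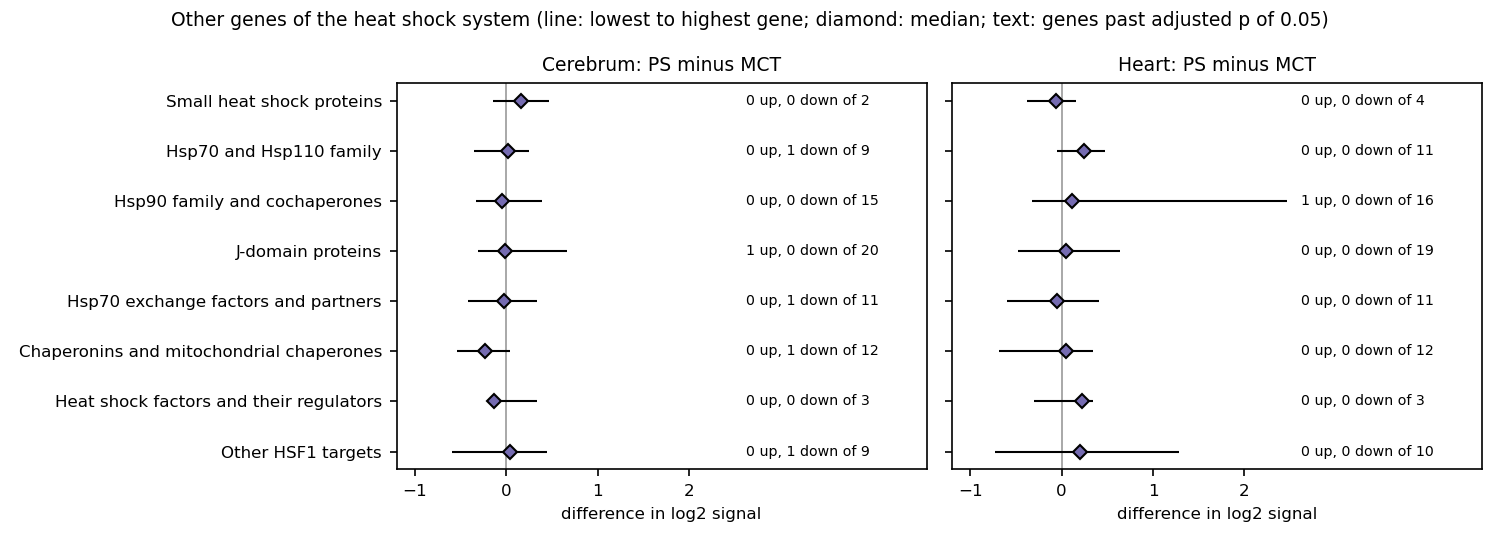
Difference between PS and MCT in log2 signal over 8 lists of other genes of the heat shock system in cerebrum and heart. Lines run from the lowest to the highest gene, diamonds are medians, and text gives the genes called. The line reaching 2.46 in heart belongs to Fkbp5, and the chaperonin median in cerebrum is -0.23.

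Between tissues, 33 of 86 listed genes were higher and 30 lower in heart with MCT, and 39 and 20 of 85 with PS. Over all genes 3834 were higher and 4715 lower of 11214 with MCT, and 4211 and 4384 of 11216 with PS. All 3 tested small heat shock proteins beside the members were higher in heart with MCT: Hspb7, a cardiac filament chaperone, by 6.41, Hspb6 by 4.41 and Hspb3 by 1.96. Unc45b, the Hsp90 cochaperone that folds myosin, was higher in heart by 4.22, and Hspa1l, an Hsp70 of the Hspa1a locus, by 3.07. Dnajc6 (auxilin), which works with Hspa8 on clathrin coats in nerve terminals, fell by 5.92 from cerebrum to heart, and Hspa12a, a distant relative of Hsp70, by 2.84. Cerebrum MCT means of 4.49 for Hspb7, 5.12 for Hspb3, 4.49 for Unc45b and 4.11 for Hspa1l, and the heart MCT mean of 4.18 for Dnajc6, lay below the filter level of 5.23, so these genes were tested only because of the other tissue and their differences are approximate.

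The transcripts most like each member over the 12 arrays, after centring in each tissue, were ranked by root mean square difference on the log2 scale. For Hspb1 10526410, whose own deviation was 0.53, they were Lrg1 (0.127), a secreted glycoprotein of endothelium and the acute phase, the immediate early gene Egr3 (0.187) and the pseudokinase Trib1 (0.203). Lrg1 read 4.90, 4.75 and 5.06 in cerebrum MCT and 5.89, 6.40 and 6.04 in cerebrum PS. It was picked for its likeness to Hspb1 on these same arrays, so a shared order of arrays follows from the choice and adds no support. Its cerebrum MCT mean of 4.90 lay below the filter level of 5.04. For Hsph1, whose own deviation was 0.268, they were Creld2 (0.0914), Hyou1 (0.0945) and Dlg4 (0.106), the first a factor and the next an Hsp70-like chaperone of the endoplasmic reticulum. For Hspb8 they were Cetn4, Cldn10 and Kap, and for Bag3 Scaf1, Dnaaf5 and Tead3, with differences of 0.0612 to 0.152. The own deviations of Hspb8 and Bag3 were 0.303 and 0.216. The ranking used no low-value filter, so low-signal transcripts could be picked. Kap read 3.04 to 4.08 on all 12 arrays and Cetn4 3.34 to 3.66 in heart. For Hspa8 10368025, whose own deviation was 0.043, the nearest was the olfactory receptor Olfr115 (0.034), at 3.36 to 3.64. These likenesses describe 12 arrays that share tissue and treatment groups.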

How the data were processed

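Per the labels' protocols, RNA of both tissues was biotin-labelled with an Affymetrix whole-transcript kit, 1 sample to each of 12 arrays. The deposited values cover 35556 transcript clusters. Per the submitters' processing notes, Affymetrix Expression Console was used. The version used, the way probes were summarised and the build were not given in the sources used here. What scale the table has is not stated, and the deposited values were taken as log2 signal from their range. A shift common to every transcript would not be visible after scaling to near-equal medians. The platform annotation gave 1 symbol for 21218 clusters, several for 1881 and none for 12457. It does not tell near-identical copies apart, so clusters of Hspb1, Hspa8 and Hsp90aa1 may also detect related sequences.

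Comparisons used R 4.3.3 with limma 3.58.1, functions lmFit and eBayes, on clusters with 1 symbol whose mean over the arrays of the fit reached the 40th percentile, with Benjamini-Hochberg adjustment over all clusters of a comparison and a threshold of 0.05. PS was compared with MCT within each tissue, heart with cerebrum within each treatment, and the PS effect between tissues over 12 arrays. Clusters with several symbols were read from a fit over all clusters of the table. The number of arrays limits the precision. The fits were tested on simulated data.

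Named genes were all members and, from each of 8 pathway lists, up to 3 other genes per comparison with the lowest p, as well as 3 transcripts most like each member. The second Hspd1 and Dnaja1 clusters were added after their values were seen. The members, lists and tests were chosen with earlier results of these data known. Alternatives were 2 other scalings, 2 filters, all clusters of the table, an intensity trend, array weights, the replicate number as a block, 1 fit over all arrays, the sex pattern as a covariate and leaving out arrays.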

Additional observations from a re-analysis of the deposited data

Results flagged for a closer look

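The cochaperone Fkbp5 was picked out because the test of the difference between tissues passed: its PS effect in heart exceeded that in cerebrum by 2.07 on the log2 scale (limma, adjusted p = 0.0191). The chaperonin Hspd1 was picked out for the same reason. Its effect in heart exceeded that in cerebrum by 0.73 (adjusted p = 0.0329), and by 1.00 in its other cluster (adjusted p = 0.0190). It read 9.32, 9.35 and 9.50 in cerebrum MCT and 8.90, 9.12 and 8.98 in cerebrum PS. In heart it read 10.08, 10.25 and 10.30 with MCT and 10.46, 10.56 and 10.64 with PS, so the arrays were apart in opposite directions. Its partner Hspe1 was lower with PS in both tissues. In heart Hspe1 differed by -0.69, with arrays that did not overlap, and was not called (limma, adjusted p = 0.134). The Hspd1 call passed in 11 of 20 alternatives and in 3 of the 12 fits that left out 1 array, and was kept without heart PS 1, heart MCT 3 and cerebrum PS 3.

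The clusters annotated to both Hspa1a and Hspa1b were picked out because they lie outside the measurements with a single symbol and their cerebrum PS arrays lay wholly above the MCT arrays. The differences were 0.65 for 10450367 and 0.84 for 10450369, neither past the threshold.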

How the results depend on the processing

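All 9 member calls between heart and cerebrum kept their direction under every alternative in both treatments, and the adjusted p of Dnajb1 reached 0.0511 in MCT mice in 1 of them. Hspa8, not called between tissues, did pass in some alternatives. With MCT, 10368025, 10528021 and 10584572 passed in 2, 2 and 1 of 15, and with PS in 1, 1 and 0 of 15. The calls for PS did not hold as widely as the 9 between tissues. The 2 Hspb1 calls in cerebrum became 0 when all clusters of the table were tested and 0 with the replicate block (adjusted p = 0.123 for both), and 0 to 2 on leaving out 1 array. The Hspb1 clusters 10408928 and 10526410 passed in 9 and 10 of 15 alternatives, with differences of 1.00 to 1.42 and 1.03 to 1.44, leaving aside the sex pattern covariate, whose PS arm is 1 array. The 5 other cerebrum calls of the pathway lists also failed with the replicate block (adjusted p = 0.124 to 0.133). Over all clusters, the cerebrum count of 734 became 189 with all clusters of the table, 3407 with array weights, 0 with the replicate block, 371 in 1 fit over 12 arrays and 0 to 1557 on leaving out 1 array. In heart, the 0 member calls became 8 with array weights, 1 in the fit over 12 arrays (Hsp90aa1) and 0 to 3 on leaving out 1 array. The heart count of 42 became 17 with all clusters, 6987 with array weights, 88 with the replicate block, 1722 in 1 fit, 1176 without MCT 3 and PS 3 together, and 4 to 3416 on leaving out 1 array. For the difference between tissues, 0 member calls became 0 to 1 (Hsp90aa1) and the count of 194 became 294 with median centring and 3 to 1629 on leaving out 1 array. The cause was not tested. Array weights did not fully converge in 3 fits. Arrays of equal number were not taken as pairs. The correlations of their deviations were 0.10, -0.15 and -0.26 between treatments in cerebrum, -0.0047, 0.09 and 0.15 in heart, and 0.12, 0.099 and 0.28 with MCT and 0.12, 0.10 and 0.053 with PS between tissues. With PS each array matched its own number best between tissues, although cerebrum PS 2 and heart PS 2 differed in sex pattern.

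Of the values, 28 changed sign, none of them past the threshold in the reported comparisons. With quantile normalization these were Dnajb1 in cerebrum (0.021), Hspa8 10584572 in heart (0.023) and between tissues with MCT (-0.014), Hspa8 10528021 for the difference between tissues (-0.011) and Hsf2 between tissues with MCT (0.045). Hspa8 10528021 in cerebrum was -0.023 with median centring and -0.017 with array weights. Dnajb1 in heart was -0.44 with array weights, where it was called lower (adjusted p = 0.0249), and -0.18 without MCT 3 and PS 3. With the sex pattern as a covariate in cerebrum, Hspb8 was 0.19 and Dnajb1 0.10. Leaving out 1 array gave ranges of -0.065 to 0.05 for Dnajb1, -0.02 to 0.005 for Hspa8 10368025, -0.012 to 0.018 for Hspa8 10528021, -0.32 to 0.018 for Hspb6 and -0.037 to 0.19 for Hsph1 in cerebrum. In heart they were -0.14 to 0.42 for Dnajb1, -0.0017 to 0.083 for Hspa8 10368025, -0.0083 to 0.077 for Hspa8 10528021 and -0.085 to 0.025 for Hspa8 10584572. For the difference between tissues they were -0.13 to 0.43 for Dnajb1, -0.345 to 0.055 for Hsf4, -0.015 to 0.07 for Hspa8 10528021 and -0.088 to 0.11 for Hspb7. Between tissues they were -0.145 to 0.015 for Hsbp1 with MCT and -0.215 to 0.11 for Hspa8 10584572 with PS. Low signal limits Hspb1 10404872 and the dimmest Hspa1a and Hspa1b cluster, and in 1 tissue Hspb7, Hspb3, Unc45b, Hspa1l, Dnajc6 and the Cryab and Hspb2 cluster 10593418. It also limits Hspb11 in cerebrum PS.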
